A study of Capra hircus with 2 samples.

Results

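The microRNAs (miRNAs) miR-15, miR-16, miR-497 and miR-424 were examined in the mammary gland of dairy goats. The members were the rows of the study's table of conserved miRNAs that carry one of 9 names. The table held 7 of these names among its 346 miRNAs, namely miR-15a, miR-15b, miR-16a, miR-16b, miR-497, miR-424 and miR-424*, and no row for miR-195 or miR-503. Both miR-16a and miR-16b are listed with one and the same sequence, so the 7 rows stand for 6 distinct sequences, and the shared one is called miR-16 here. Mammary tissue of 3 Xinong Saanen dairy goats, 2.5 years old, was pooled for the dry period and likewise for peak lactation before sequencing. Each stage is therefore 1 library, and the spread between goats was not measured. The sample labels assign day 75 after lambing to the dry period library and day 320 to the other, and their protocol text names days 30 and 320. The results of the study give the reverse, day 320 for the dry period and day 75 for peak lactation. The stage of each library follows its title here. The clean read totals of the libraries equal those that the study reports for the stages in their titles. Small RNA reads hold no messenger RNA markers of mammary cells, so the tissue label was not checked.

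A miRNA guides silencing proteins to messenger RNAs through its seed, which is bases 2 to 8 counted from the 5′ end. The miR-15/16 family is known for restraining the cell cycle and cell survival, with D-type cyclins, cyclin E, cell-cycle kinases and BCL2 among its textbook targets. The miR-15a/16 cluster is lost in many chronic lymphocytic leukaemias, and the cluster of miR-424 and miR-503 is known from mouse work on mammary involution, the regression of the gland once milk is no longer removed.

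The listed sequences are shown because the seed defines the family and the 3′ ends separate its members. Capitals mark the seed.
miR-15a: uAGCAGCAcauaaugguuugu
miR-15b: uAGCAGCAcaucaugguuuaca
miR-16a and miR-16b: uAGCAGCAcguaaauauugg
miR-497: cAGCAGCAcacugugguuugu
miR-424: cAGCAGCAauucauguuuuga
miR-424*: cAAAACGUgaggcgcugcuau
miR-103: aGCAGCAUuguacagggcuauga

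Among the 346 listed miRNAs, AGCAGCA at bases 2 to 8 was found in 6, and all of them were members. The sixth distinct sequence, miR-424*, comes from the opposite arm of the miR-424 precursor and has the unrelated seed AAAACGU. In the abundant miR-103 the same 7 letters lie at bases 1 to 7, 1 base nearer to the 5′ end, which gives it a different seed. Of the 5 seed-sharing sequences, miR-15a and miR-15b were most alike, with 18 of 21 bases identical and the differences A12C, G20A and U21C (the base of miR-15a, its position from the 5′ end, the base of miR-15b). The least alike were miR-16 and miR-497, with 11 of 20 bases identical. In the RefSeq gene table of the goat (assembly ARS1.2), MIR15A and MIR16A lie next to each other with no gene between them, as do MIR15B and MIR16B, MIR195 and MIR497, and MIR424 and MIR542, which in turn lies next to MIR450. Of 10 genes looked up there, 9 were matched, and MIR503 was the other one. These neighbours therefore do not show where MIR503 lies, or whether it lies between MIR424 and MIR542.

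The libraries differed in make-up. They held 14851375 (dry period) and 15712891 (peak lactation) clean reads, of which 61.1% and 14.4% were counted for conserved miRNAs. The study, which matched reads to miRNA precursors, reported fewer conserved miRNA reads in the dry period and more at peak lactation. Its totals therefore differ less between the libraries, and the cause of this gap was not tested. Abundance is given as reads per 1000000 clean reads (RPM), with 95% exact Poisson intervals. A difference is given as log2 of peak lactation over dry period, with an exact 95% interval from how its reads divide between the libraries. These intervals cover counting error only, and no difference could be tested between animals. At this depth, 3 reads correspond to 0.202 RPM in the dry period and 0.191 RPM at peak lactation, far below every member. In whole tissue, fewer cells of a type and less RNA per cell cannot be told apart.

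In the dry period library miR-16 was the most abundant member, with 10870 reads or 732 RPM (718 to 746). It was followed by miR-497 at 162 RPM (155 to 168, 2404 reads) and miR-15a at 123 RPM (117 to 129, 1824 reads). Next came miR-424 at 84.0 RPM (79.4 to 88.8, 1247 reads), miR-15b at 57.6 RPM (53.8 to 61.6, 856 reads) and miR-424* at 21.5 RPM (19.3 to 24.04, 320 reads). The intervals of neighbours in this order did not overlap, although reads of different sequences were not calibrated against each other. Among all listed miRNAs in the dry period, miR-16 ranked 47th, miR-497 76th, miR-15a 82nd, miR-424 99th, miR-15b 110th and miR-424* 141st.

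At peak lactation miR-16 again led, with 3697 reads or 235 RPM (228 to 243). The next members were miR-497 at 35.5 RPM (32.6 to 38.6, 558 reads) and miR-424 at 35.3 RPM (32.4 to 38.4, 555 reads), which could not be ranked against each other. Below them were miR-15a at 27.4 RPM (24.9 to 30.1, 431 reads), miR-15b at 14.4 RPM (12.6 to 16.5, 227 reads) and miR-424* at 10.6 RPM (9.02 to 12.3, 166 reads). The order thus differed in 1 place, since miR-424 stood below miR-15a in the dry period and above it at peak lactation. Ranks do not depend on scaling. Those of miR-424 (95th) and miR-424* (133rd) were nearer the top than in the dry period, and those of miR-16 (52nd), miR-497 (92nd), miR-15a (106th) and miR-15b (120th) were further from it.

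**Figure D1:**
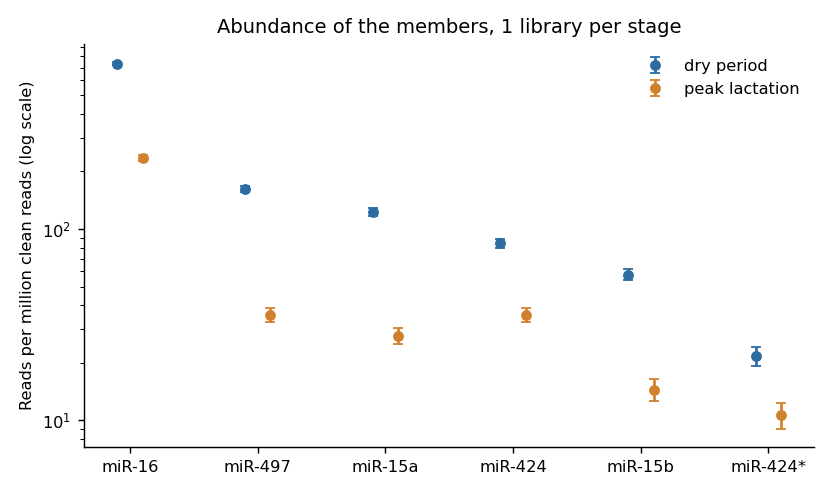
Reads per 1000000 clean reads of the 6 distinct member sequences (vertical log axis) in the dry period library and the peak lactation library, 1 library each, with bars for the exact 95% Poisson interval. Every member was lower at peak lactation, and miR-497 and miR-424, apart in the dry period, met at 35.5 and 35.3 RPM.

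Relative to clean reads, all 7 member rows were more than 2-fold lower at peak lactation. This was also true of 70.4% of the 257 conserved miRNAs with at least 1 RPM in a library, while 1.17% were more than 2-fold higher, so a 2-fold lower value was common and not particular to the members. The largest differences were those of miR-497, with a log2 ratio of -2.19 (-2.32 to -2.05), and miR-15a, with -2.16 (-2.32 to -2.01). For miR-15b the log2 ratio was -2.00 (-2.21 to -1.78). The most abundant member, miR-16, had a log2 ratio of -1.64 (-1.69 to -1.58). Both arms of the miR-424 precursor differed least, with -1.25 (-1.40 to -1.10) for miR-424 and -1.03 (-1.31 to -0.75) for miR-424*. The interval of miR-424* spans the 2-fold threshold of -1, and its value missed that threshold with identical tags only (-0.87) and when scaled to clean reads of 18 to 25 nt (-0.81). Summed over the 5 seed-sharing sequences, 17201 and 5468 reads gave -1.73 (-1.78 to -1.69), or 3.33-fold fewer reads per clean read at peak lactation.

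The tested miRNAs had a median log2 ratio of -1.44 and quartiles of -2.15 and -0.92. Both miR-497 and miR-15a lay just below the lower quartile, since 23.3% and 24.5% of the tested miRNAs had lower values. For miR-15b this share was 30.7%, and for miR-16 it was 43.2%. It was 57.6% for miR-424 and 66.9% for miR-424*, which placed these above the median. The median over the 6 distinct member sequences was -1.82.

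The direction of the members depended on what the libraries were scaled to. Scaling to the reads of conserved miRNAs raised every log2 ratio by 2.08. On that scale miR-497 (-0.10) and miR-15a (-0.08) were near 0, miR-15b (0.09), miR-16 (0.45) and miR-424 (0.83) were above it, and miR-424* (1.06) was more than 2-fold higher at peak lactation. Of all tested miRNAs, 36.2% were then more than 2-fold higher and 7.39% more than 2-fold lower. Of the 9081514 (dry period) and 2266176 (peak lactation) reads used, let-7f held 2718302 and 678325, and let-7a 2628486 and 359477. The log2 ratio of let-7f relative to clean reads was -2.08, so values on this scale are close to values relative to let-7f. The study's own totals of conserved miRNA reads would give a smaller shift, and the members were not rescaled to them. With the TMM factors of edgeR, which bring the median of the tested miRNAs to 0.01, no member differed 2-fold, against 17.9% of the tested miRNAs that were lower and 12.1% that were higher. The values were then -0.74 for miR-497, -0.72 for miR-15a, -0.55 for miR-15b and -0.19 for miR-16, and above 0 for miR-424 (0.20) and miR-424* (0.42). A scaling shifts every miRNA alike, so the order of the members was kept, with miR-497 and miR-15a lowest and the arms of miR-424 highest.

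**Figure D2:**
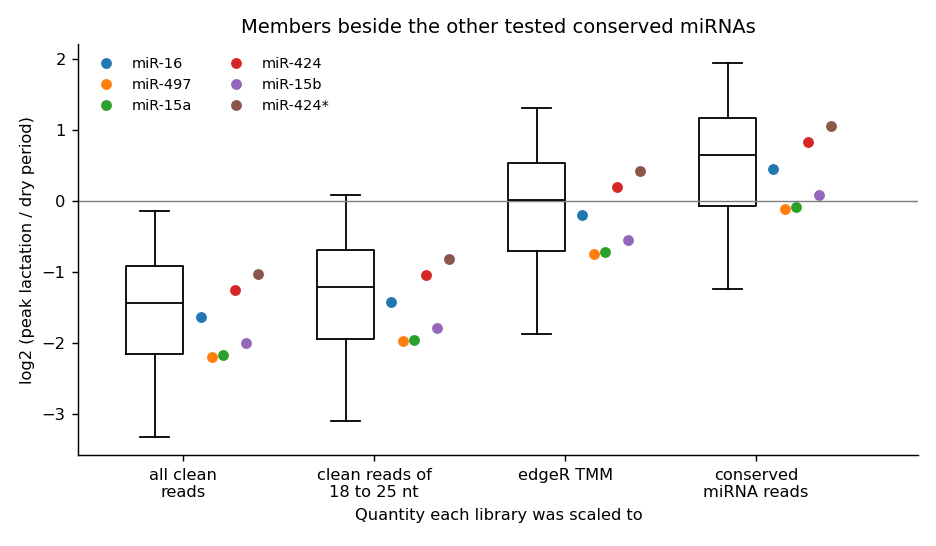
Log2 of peak lactation over dry period for the 6 member sequences (points) beside the other 250 tested conserved miRNAs (boxes for the quartiles and median, whiskers for the central 90%), with the libraries scaled to 4 different quantities. The median over all tested miRNAs moves from -1.44 with all clean reads to 0.64 with conserved miRNA reads, and miR-424 and miR-424* lie above the box median on each scale.

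Ratios between members within a library are free of this scaling. In the dry period, miR-16 made up 63.2% of the reads of the seed family (62.5 to 63.9%), and at peak lactation 67.6% (66.4 to 68.9%). The share of miR-424 was 7.25% (6.87 to 7.65%) against 10.2% (9.36 to 11.0%). For miR-497 the shares were 14.0% (13.5 to 14.5%) and 10.2% (9.41 to 11.0%), and for miR-15a they were 10.6% (10.1 to 11.1%) and 7.88% (7.18 to 8.63%). The smallest seed-sharing member, miR-15b, held 4.98% (4.66 to 5.31%) and 4.15% (3.64 to 4.71%). The make-up of the family thus differed between the libraries by more than counting error, toward miR-424 and miR-16 at peak lactation and away from miR-497, miR-15a and miR-15b, whose odds ratio against the rest of the family was 0.827 (0.709 to 0.962).

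Among the 10 pairs of seed-sharing sequences, the exact 95% interval of the odds ratio left out 1 for 7 pairs and held 1 for 3. The farthest from 1 was miR-497 against miR-424, with 1.93 reads of miR-497 per read of miR-424 in the dry period against 1.01 at peak lactation, an odds ratio of 0.522 (0.454 to 0.599). For miR-15a per miR-424 the odds ratio was 0.531 (0.458 to 0.615). The 3 pairs formed by miR-15a, miR-15b and miR-497 were those whose intervals held 1, with 0.891 (0.742 to 1.07) for miR-15a per miR-15b, 1.02 (0.883 to 1.17) for miR-15a per miR-497 and 1.14 (0.956 to 1.36) for miR-15b per miR-497. These intervals still allow differences of up to 1.36-fold. For miR-15a per miR-16 the odds ratio was 0.695 (0.620 to 0.777), and for miR-15b per miR-16 it was 0.780 (0.667 to 0.908). The reads of miR-16 pool the MIR16A and MIR16B genes, so neither ratio compares neighbouring genes.

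**Figure D3:**
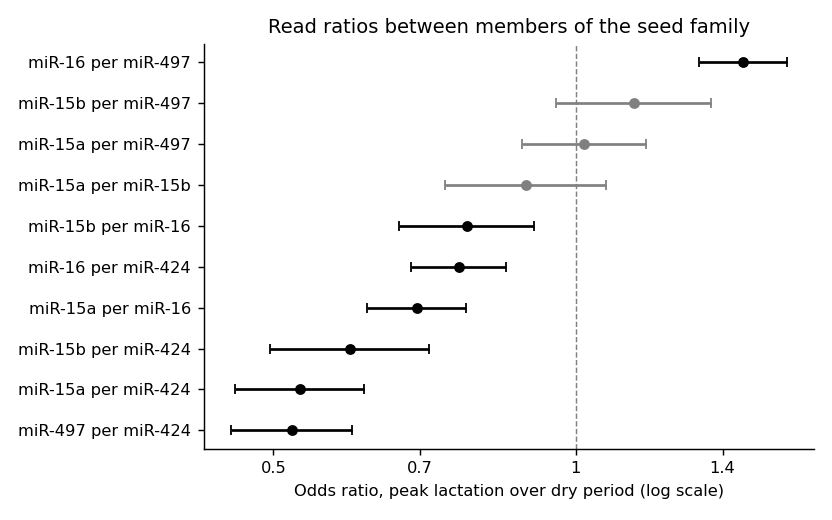
Odds ratio, peak lactation over dry period, of the reads of one seed-sharing member per read of another (horizontal log axis) for the 10 pairs, with exact 95% intervals. Black intervals leave out 1 (dashed line) and grey ones hold it; miR-497 per miR-424 lies farthest from the line, at 0.522.

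The arms of the miR-424 precursor were compared in the same way. Per read of miR-424, 0.257 reads of miR-424* were counted in the dry period (0.226 to 0.290) against 0.299 at peak lactation (0.250 to 0.356). The odds ratio of 1.17 had an interval of 0.936 to 1.45, so a difference in arm use was not detectable at this depth. The other listed miRNAs of this gene cluster were scarce. The reads of miR-450 numbered 136 and 35, a log2 ratio of -2.04 (-2.62 to -1.49). For miR-542-5p, 20 and 13 reads gave -0.70 (-1.83 to 0.38). Relative to clean reads, 1 of these 2 was more than 2-fold lower and neither was 2-fold higher, beside 70.4% lower and 1.17% higher over all tested miRNAs.

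The 3′ ends, which the choice of members did not use, set miR-16 apart. Its most frequent tags are given here to show this, with the bases beyond the listed sequence in capitals.
miR-16, tag 1: uagcagcacguaaauauuggAG
miR-16, tag 2: uagcagcacguaaauauuggA
miR-16, tag 3: uagcagcacguaaauauuggAGA
miR-16, tag 4: uagcagcacguaaauauuggGG

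Tag 1 had 3468 reads in the dry period against 1215 at peak lactation. Tag 2 had 1278 and 531, tag 3 had 959 and 363, and tag 4 had 604 and 143. The listed sequence of 20 nt itself had only 415 and 144 reads. It accounted for 3.82% of the reads of miR-16 in the dry period and for 3.90% at peak, while 92.2% and 92.6% ran beyond it. For the other members the listed form held between 35.2% and 56.6% of the reads. Over 136 other conserved miRNAs with at least 100 reads in each library, the median share of the listed form was 44.4% in the dry period, and 1.47% of them had a lower share than miR-16.

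Most of these longer miR-16 reads had A or G as base 21. Of those in the dry period library, 7450 of 10021 carried A (74.3%, 73.5 to 75.2%) and 2522 carried G (25.2%, 24.3 to 26.0%). At peak lactation 2729 of 3424 carried A (79.7%, 78.3 to 81.0%) and 678 carried G (19.8%, 18.5 to 21.2%). Bases C and U together were found in 49 and 17 reads. Reads with G went on with a second G in 2002 and 505 cases, and reads with A went on with G in 5402 and 1876. Relative to clean reads, the log2 ratio was -1.53 (-1.59 to -1.47) for reads with A and -1.98 (-2.10 to -1.85) for reads with G. The odds ratio of G against A, 0.734 (0.666 to 0.808), does not depend on scaling. No precursor sequence of miR-16a or miR-16b was used here, so the A and G reads were not assigned to either gene, and bases added after processing could not be separated from encoded ones.

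Both arms of miR-424 had shorter 3′ ends at peak lactation. Reads that ran beyond the listed end of miR-424 made up 24.6% in the dry period (22.3 to 27.1%) against 15.9% at peak lactation (12.9 to 19.2%), an odds ratio of 0.577 (0.439 to 0.754). For miR-424* the shares were 42.2% (36.7 to 47.8%) and 32.5% (25.5 to 40.2%), an odds ratio of 0.661 (0.436 to 0.996). Mean tag length differed by -0.22 nt between the libraries for each arm. Of the 136 other miRNAs, 2 had a more negative change of the share of longer reads than miR-424 and 1 than miR-424*, and the median change was -0.19 percentage points. This ranking did not allow for read depth, and miR-424* rested on only 320 and 166 reads. The tags behind the shorter ends of miR-424 are shown, again with bases beyond the listed end in capitals.
miR-424, listed form: cagcagcaauucauguuuuga
miR-424, shorter tag: cagcagcaauucauguuuug
miR-424, longer tag: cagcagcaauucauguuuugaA

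The listed form of miR-424 had 646 and 291 reads, which were similar shares of the total (51.8% and 52.4%). The shorter tag had 214 reads in the dry period against 129 at peak lactation, and the longer one 234 and 66. There were 1.09 longer reads per shorter read in the dry period against 0.512 at peak lactation, an odds ratio of 0.468 (0.324 to 0.673).

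The remaining members differed less in the share of longer reads. Longer reads of miR-15a made up 42.2% and 40.4%, with an odds ratio of 0.929 (0.745 to 1.16). For miR-497 they made up 35.6% and 35.7%, with an odds ratio of 1.0 (0.822 to 1.22). In miR-15b, reads that stopped before the listed end were frequent instead, at 46.1% (42.8 to 49.6%) and 55.9% (49.2 to 62.5%), and its mean tag length differed by -0.12 nt. The first base beyond the listed end was A in 97.7% and 97.5% of the longer miR-497 reads and in 305 of 307 and 88 of 88 of those of miR-424. It was G in 92.5% (90.4 to 94.2%) and 86.8% (80.8 to 91.4%) of the longer miR-15a reads.

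**Figure D4:**
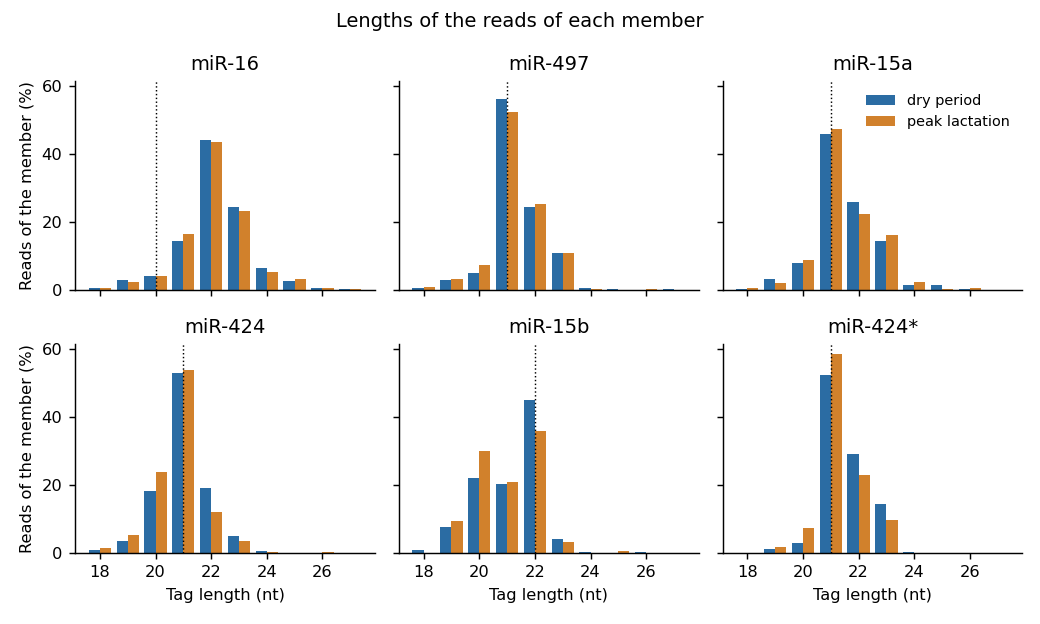
Share of the reads of each member sequence (vertical axis, percent) by tag length in nt, in the dry period and peak lactation libraries, with a dotted line at the listed length. Reads of miR-16 peak at 22 nt, beyond the listed 20 nt, and the bars of miR-424 and miR-424* at 22 and 23 nt are lower at peak lactation.

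Shifts of the 5′ end were rare, except in 2 members. A shifted start moves the seed and so gives the read another set of matching targets. Tags that lacked the first base of miR-497 held 122 of 2533 reads in the dry period (4.82%, 4.02 to 5.72%) and 32 of 595 at peak lactation (5.38%, 3.71 to 7.51%). The leading one, with 30 and 9 reads, has the seed GCAGCAC, shown in capitals.
miR-497, without the first base: aGCAGCACacugugguuuguac

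For miR-424* tags without the first base held 26 of 352 reads (7.39%, 4.88 to 10.6%) and 7 of 174 (4.02%, 1.63 to 8.11%), intervals that overlap. In the other 4 sequences all shifted starts together came to at most 1.73% of reads in either library. Shifted starts thus held at most 9.09% of the reads of any member, the share in miR-424* in the dry period.

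Other conserved miRNAs that are known for cell-cycle targets were set beside the family. Of 26 listed, among them let-7 miRNAs, miR-34a, miR-103 and miR-107, 23 had at least 1 RPM in a library. Relative to clean reads, 20 of the 23 were more than 2-fold lower at peak lactation and none was 2-fold higher, beside 70.4% lower and 1.17% higher over all tested miRNAs. Their log2 ratios ran from -5.20 for miR-34a, which had 139 and 4 reads, to -0.25 for miR-107. Scaling to conserved miRNA reads raises these values by 2.08 as well. Their median log2 ratio was -2.37, against -1.82 for the member sequences and -1.44 for all tested miRNAs. The list was written out by name with earlier results of these data known. It includes miR-25, miR-93, miR-98, miR-221, miR-222, let-7b and let-7c, which the study had already reported as lower at peak lactation. Its counts and median are therefore no independent evidence on cell-cycle miRNAs. The log2 ratios nearest to that of the summed seed family, among other miRNAs with at least 1000 reads, were those of miR-125b (-1.79), miR-660 (-1.68), miR-532 (-1.67) and of miR-92 and miR-92a, which were counted from the same reads (-1.81). This likeness rests on 2 libraries.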

How the data were processed

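Small RNA of RNA pooled from 3 goats per stage was sequenced by the Solexa method, and the submitters' processing notes name CASAVA. After filters on quality, adaptors, inserts, poly(A) stretches and a length of at least 18 nt, the authors deposited the count of clean reads of each distinct tag, without normalization or alignment. Tags were given to the listed miRNA with the longest identical 5′ stretch of at least 18 nt, and ties counted for each. A miRNA with at least 1 RPM in a library was tested, where tested means compared by its fold, and a count of 0 was set to 0.01 RPM. No p-value was computed for the text, since each stage had 1 library. All members, their leading tags (at most 4), the 5 most alike miRNAs and lists written out by name were described. The members and lists were chosen with earlier results of these data known. Sequences came from the study's supplementary tables and the deposited tags, and no genome sequence was used. Gene neighbours came from the RefSeq gene table of the goat (assembly ARS1.2). Alternatives covered counting rules, scalings, filters, an Audic-Claverie threshold of 0.01 and 1 added read. Counting was tested on simulated tags identical to listed sequences among random tags, without 3′ or 5′ variants. Intervals were tested on simulated Poisson counts. Python 3.11.15, numpy 2.4.6, scipy 1.17.1, matplotlib 3.10.9, R 4.3.3, edgeR 4.0.16 (TMM) and DESeq2 1.42.0 (size factors) were used.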

Additional observations from a re-analysis of the deposited data

Results flagged for a closer look

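Tags outside the listed rows also carried the family seed. Of all reads with AGCAGCA at bases 2 to 8 that were either counted for a seed-sharing member or for no listed miRNA, 10.5% in the dry period (2024 reads) and 13.2% at peak lactation (829 reads) belonged to no row. The leading group began with the same 18 nt and was flagged because its reads, 1305 (dry period) and 459 (peak lactation), exceed the 3 reads taken as the floor and enter no comparison above. It amounted to 87.9 and 29.2 RPM, a log2 ratio of -1.59 (-1.75 to -1.43). That is a level close to miR-424 in the dry period, when miR-424 had 84.0 RPM. Its most frequent tag, with 474 and 173 reads, is given with the seed in capitals.
Unlisted tag: uAGCAGCAcagaaauguuggua

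Over the compared positions this tag had 17 of 20 bases identical to miR-16 and 17 of 21 to miR-15a. No reference sequence of miR-195 was used here, so the tag was not named.

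A candidate miRNA of the study, novel_mir_51, was flagged for the same reason. The paper reports sequencing its precursor from goat DNA and examining it by stem-loop RT-PCR. The seed of this candidate, AGCAGCG, differs from that of the family in the last base. Tags that shared at least 18 nt with it held 1022 dry period reads and 329 peak lactation reads (68.8 and 20.9 RPM), a log2 ratio of -1.72 (-1.90 to -1.54). No reference sequence of miR-503 was used here, so the candidate was not compared with it.
novel_mir_51: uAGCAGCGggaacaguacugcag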

How the results depend on the processing

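With 1 library per stage, the spread between goats is unknown, and neither leaving out a replicate nor a test between stages was possible. No paired analysis was possible because each stage has 1 library. The log2 ratio of the summed seed family, -1.73, became 0.35 when scaled to conserved miRNA reads, -0.29 with edgeR's TMM factors, -0.30 with DESeq2's size factors, -1.52 when scaled to clean reads of 18 to 25 nt, and -1.93 with identical tags only. Scaling to conserved miRNA reads reversed miR-15b (0.088), miR-16 (0.45), miR-424 (0.83) and miR-424* (1.06). The study's own totals of such reads, which differ from those counted here, were not used. TMM factors reversed miR-424 (0.20) and miR-424* (0.42), as did DESeq2's size factors (0.19 and 0.41). These shifts follow from the construction of the scalings. The 7 members that were 2-fold lower became 0 under these 3 scalings, with 1 member higher when scaled to conserved miRNA reads. They became 6 with identical tags only and with clean reads of 18 to 25 nt, since miR-424* then fell short of 2-fold (-0.87 and -0.81). All 36 values of single members under other counting rules or with 1 read added stayed below 0, from -2.32 to -0.87. Of all tested miRNAs, 181 were lower and 3 higher with clean reads, 19 and 93 with conserved miRNA reads, and 46 and 31 with both TMM and DESeq2's factors. The number higher was 6 with 5′ ends shifted by up to 2 nt and 5 without tags seen once, and the cause was not tested. Without a filter it was 12, which included miRNAs such as miR-216b, with 0 dry period reads and 1 peak lactation read. The ratio of such a miRNA rests on the 0 that was set to 0.01 RPM. With identical tags only, miR-16 held 11.7% and 14.6% of the family's reads, since its listed form is rare, and miR-497 then led in the dry period with 36.6% and miR-424 at peak lactation with 29.5%. Reads beyond the listed end made up 69.2% and 70.0% over all members, and 72.5% and 73.4% with a stretch of 20 nt, which leaves out shorter tags. Most of these longer reads were those of miR-16, whose listed form has 20 nt. For each other member the share lay between 3.08% and 42.2% in either library. Leaving out tags seen once (a setting chosen after the data were seen) gave 24.4% and 15.5% longer reads for miR-424.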
